A study of Homo sapiens with 15 samples.

Results

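Matrix metalloproteinases (MMPs) were followed here as RNA in MDA-MB-231, an established human triple-negative breast cancer line. The 10 genes were MMP1, MMP2, MMP3, MMP9, MMP11, MMP13, MMP14, MMP15, MMP16 and MMP24, taken by gene symbol from the deposited count table, and all 10 were found among its 18858 genes. Cells were left untransfected (Control) or were transfected with siRNA pools. The pools were non-targeting (siControl), aimed at YAP1 (siYAP), aimed at the TAZ gene WWTR1 (siTAZ), or combined (siYAP+TAZ). Knockdown lasted 48 h and was followed by 5 to 6 h on gelatin before RNA extraction. There were 3 libraries in each of the 5 groups. Control comprised libraries 16, 21, 26, siControl libraries 17, 22, 27, siYAP libraries 18, 23, 28, siTAZ libraries 19, 24, 29, and siYAP+TAZ libraries 20, 25, 30. The siYAP+TAZ cells received both pools and so more siRNA in total, which cannot be told apart from the co-knockdown in these groups.

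MMPs are zinc-dependent endopeptidases that cleave collagens, gelatin, laminin, other matrix proteins and cell surface proteins. Most are made as inactive precursors and act after their propeptide is removed, and tissue inhibitors of metalloproteinases (TIMPs) block the active enzyme. Membrane-type MMPs sit on the cell surface. Their best known member, MT1-MMP (the product of MMP14), degrades matrix at invadopodia, the actin-rich protrusions of invasive cells, and activates pro-MMP2. YAP and TAZ are transcriptional coactivators restrained by the Hippo pathway and bind DNA mainly through TEAD factors. The comparisons ask which MMP transcripts differ once YAP, TAZ or both are depleted.

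At the RNA level MMP14 dominated the family and was higher after depletion of TAZ and of both proteins, by less than the 2-fold limit of the study. MMP11 was higher in the same comparisons and passed that limit. MMP2, MMP9 and MMP13 passed it after co-knockdown but were at the count floor in siControl, where no library held more than 3 reads of any of them. MMP1, MMP3, MMP15, MMP16 and MMP24 passed neither threshold rule in any comparison, though MMP15, MMP16 and MMP24 passed on adjusted p under an alternative fit given with their values.

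The promoters of the pair called with the most reads, MMP14 and MMP11, are shown because both genes moved in the same comparisons. Of the 10 genes, 4 (MMP11, MMP14, MMP15 and MMP24) had an entry in the RefSeq promoter table (GRCh38.p14). The stretches are the 250 bases before each RefSeq start on the plus strand, at chr14:22836335-22836584 for MMP14 and chr22:23772599-23772848 for MMP11, and capitals mark the GC box GGGCGG. The RefSeq start of MMP11 lies 4623 bases inside the interval that GENCODE release 44 gives the gene, because 3 of its 13 transcripts there, none of them protein-coding, begin farther upstream, while its 1 protein-coding transcript begins at the RefSeq start. For MMP14 the difference is 25 bases. The 2 stretches read:
MMP14: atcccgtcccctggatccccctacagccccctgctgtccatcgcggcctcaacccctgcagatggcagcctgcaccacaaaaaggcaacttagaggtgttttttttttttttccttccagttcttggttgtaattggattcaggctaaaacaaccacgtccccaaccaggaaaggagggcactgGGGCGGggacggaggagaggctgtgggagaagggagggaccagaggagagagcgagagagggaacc
MMP11: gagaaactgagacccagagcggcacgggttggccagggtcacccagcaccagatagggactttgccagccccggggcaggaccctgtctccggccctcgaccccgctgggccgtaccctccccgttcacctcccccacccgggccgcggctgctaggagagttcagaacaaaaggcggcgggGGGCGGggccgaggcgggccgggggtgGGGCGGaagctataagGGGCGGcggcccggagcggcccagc
The GC box, a letter pattern bound by Sp-family factors, occurred 1 time in the MMP14 stretch, 3 times in that of MMP11, 5 times in that of MMP15 and 3 times in that of MMP24, counting both strands. It was present in 42.6% of all 35116 promoters of this length. The AP-1 letters TGAGTCA, the TEAD letters GGAATG and the TATA letters TATAAA were absent on both strands from all 4 stretches. Those patterns were found in 4.2%, 11.9% and 10.7% of all promoters. A letter match is a description of this window and does not show binding.

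The libraries held 18696737 to 30107312 counted reads (median 22902846). Within groups, log2 expression correlated between libraries at Pearson's r of 0.986 to 0.993 across genes, and no pair of libraries was identical. YAP1 had 4431, 4333 and 4202 normalized counts in siControl, against 1013, 2764 and 761 in siYAP and 2240, 2202 and 1796 in the co-knockdown. For WWTR1 the siControl libraries held 1995, 1850 and 1579, against 828, 254 and 521 in siTAZ and 1133, 1123 and 1284 in siYAP+TAZ. No knockdown library overlapped siControl for its target. In the edgeR test WWTR1 passed in siTAZ (log2 fold change -1.74 ± 0.31, adjusted p = 0.0187) but not in siYAP+TAZ (-0.62 ± 0.30, adjusted p = 0.199), and YAP1 passed neither in siYAP (-1.51 ± 0.37, adjusted p = 0.0992) nor in siYAP+TAZ (-1.06 ± 0.37, adjusted p = 0.0723). DESeq2 gave YAP1 adjusted p-values of 0.00942 and 0.0381 and WWTR1 0.175 in siYAP+TAZ. Within the groups, siYAP library 23 kept the most YAP1 RNA of its group, and the co-knockdown libraries kept more WWTR1 RNA than any siTAZ library. The line's markers VIM, CD44, EGFR, AXL, KRT8 and KRT18 were abundant, at no fewer than 4521 reads in any library. Estrogen receptor, E-cadherin and ESRP1 had no entry in the table used, and the progesterone receptor gene PGR had 0 to 7 reads. Of 9 markers of leukocytes, fibroblasts and endothelium, 5 had no entry, PTPRC, LYZ and LUM had 0 to 14 reads, and COL1A1 had 211 to 577 reads.

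The order of the 10 genes in siControl was set per length, as normalized counts per kb of exon (the union of annotated exons). MMP14 led with 2964 ± 79.2 (SD, n = 3) normalized counts per kb. MMP1 followed at 204 ± 68.5, 14.6 times lower, then MMP15 at 34.8 ± 10.5 and MMP24 at 10.2 ± 2.71. The libraries of these 4 genes did not overlap between neighbours in the order. MMP16 (8.23 ± 2.62), MMP3 (5.24 ± 2.23) and MMP11 (3.53 ± 0.897) overlapped their neighbours, MMP24 included. The last 3 genes were MMP13 at 0.544 ± 0.146, MMP9 at 0.517 ± 0.548 and MMP2 at 0.0655 ± 0.113, all below MMP11. MMP9 overlapped both MMP13 and MMP2, whereas MMP13 and MMP2 did not overlap. In every library MMP14 alone supplied 91.2% to 95.2% of the reads of all MMP family genes in the table.

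**Figure D1:**
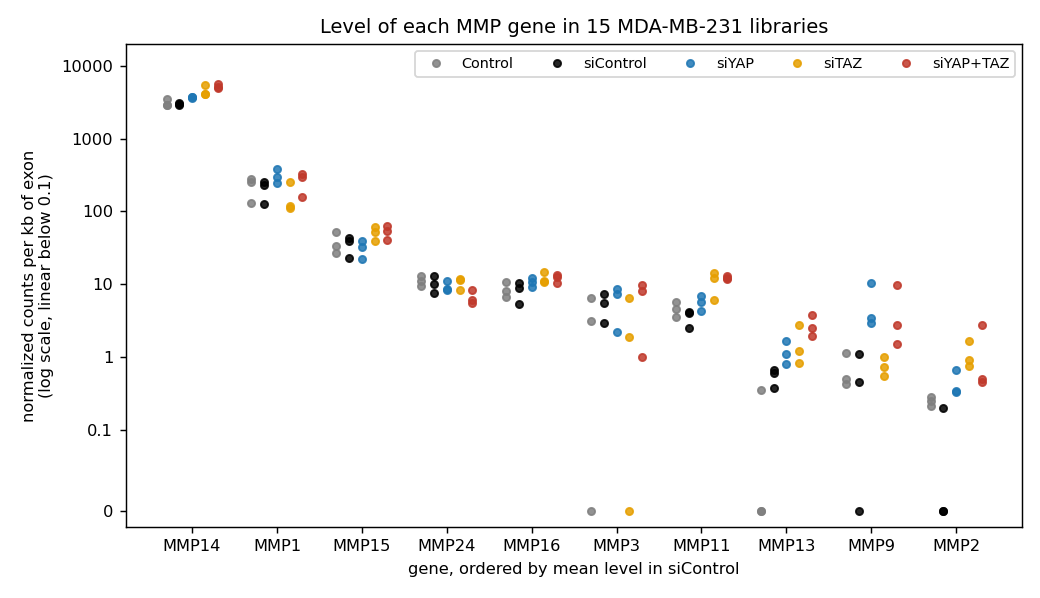
Normalized counts per kb of exon (log scale, linear below 0.1) of the 10 MMP genes in each of the 15 libraries, with 1 point per library and colours for the 5 groups. MMP14 has a mean of 2964 in siControl and above every other gene, while MMP13, MMP9 and MMP2 lie at about 1 or less in Control and siControl, with several libraries at 0.

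The deposited table lists genes that reached 5 reads in at least 1 library, which bears on the lowest members. MMP2, MMP9 and MMP13 reached 5 reads in knockdown libraries only, since their highest counts in Control and siControl were 1, 3 and 2 reads. A gene that entered the table in this way had to be higher in some knockdown library. The table held 835 such genes, and their median fitted log2 fold change in siYAP+TAZ against siControl was 0.96. Of them 6.83% passed both thresholds in that comparison, against 3.3% of the remaining 18023 genes. The members were also chosen with earlier results of these data known. The counts and medians over all 10 members below are therefore a description. The 7 members that also reached 5 reads in Control or siControl are counted separately.

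After co-knockdown, relative to siControl, 4 of the 10 genes (MMP2, MMP9, MMP11 and MMP13) passed both thresholds, which were an adjusted p no greater than 0.05 together with a change of at least 1 log2 unit in either direction (edgeR quasi-likelihood test, Benjamini-Hochberg adjustment over all 18858 genes). Over all genes 3.46% passed both thresholds, and 3.14% passed them as higher. With MMP14, 5 of the 10 had an adjusted p of at most 0.05, all of them higher, against 18.4% of all genes in either direction and 9.97% of all genes as higher. DESeq2 called 3 of the 10 past both thresholds, without MMP13, against 3.27% of all genes. The fitted log2 fold change was positive for 9 of the 10, with a median of 0.70 over the 10 and of -0.0048 over all genes. Among the 7 members that also reached 5 reads in Control or siControl, 1 passed both thresholds, 2 had an adjusted p of at most 0.05 and the median was 0.53. Every siYAP+TAZ library lay above every siControl library for 6 of the 10, against 18.2% of all genes. Of these, MMP2, MMP9 and MMP13 reached 5 reads in knockdown libraries only, whereas MMP11, MMP14 and MMP16 also did so in Control or siControl. None of the 10 lay below in this way, against 18.2% of all genes.

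After single knockdown fewer members passed. In siTAZ, 1 of the 10 (MMP11) passed both thresholds against 0.212% of all genes, and 2 (MMP11 and MMP14) had an adjusted p of at most 0.05 against 2.03% of all genes, in edgeR. In siYAP none passed both thresholds in edgeR or in DESeq2, against 0.0955% and 0.18% of all genes. In edgeR none had an adjusted p of at most 0.05, against 0.933% of all genes. There 2 (MMP9 and MMP14) had an unadjusted p under 0.05, against 11.9% of all genes. In siControl against Control, none passed both thresholds in edgeR or in DESeq2, as for 0% of all genes, and none had an unadjusted p under 0.05, against 2.11% of all genes. The study describes 3 independent sets of experiments, and each of the runs of library numbers 16 to 20, 21 to 25 and 26 to 30 holds 1 library of every group, but no source used here says that a run is a set. A fit with the run as a block changed these counts and also the share of all genes that passed. In siYAP it had 1 member past both thresholds (MMP9) against 0.382% of all genes and 2 at an adjusted p of at most 0.05 (MMP9 and MMP14) against 6.1%. In siTAZ it had 2 past both (MMP2 and MMP11) against 0.806% and 5 on adjusted p (MMP2, MMP11, MMP14, MMP15 and MMP16) against 10.3%. In siYAP+TAZ it had 4 past both against 4.41% and 7 on adjusted p against 28.6%. MMP2, MMP9 and MMP13 reached 5 reads in knockdown libraries only, so these block counts over the 10 are a description. Among the other 7 members, siYAP had none past both with the block and only MMP14 on adjusted p. In siTAZ these 7 had MMP11 past both, and MMP11, MMP14, MMP15 and MMP16 on adjusted p. The 3 knockdown comparisons share the siControl libraries, so their values are given side by side and are not independent of each other.

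**Figure D2:**
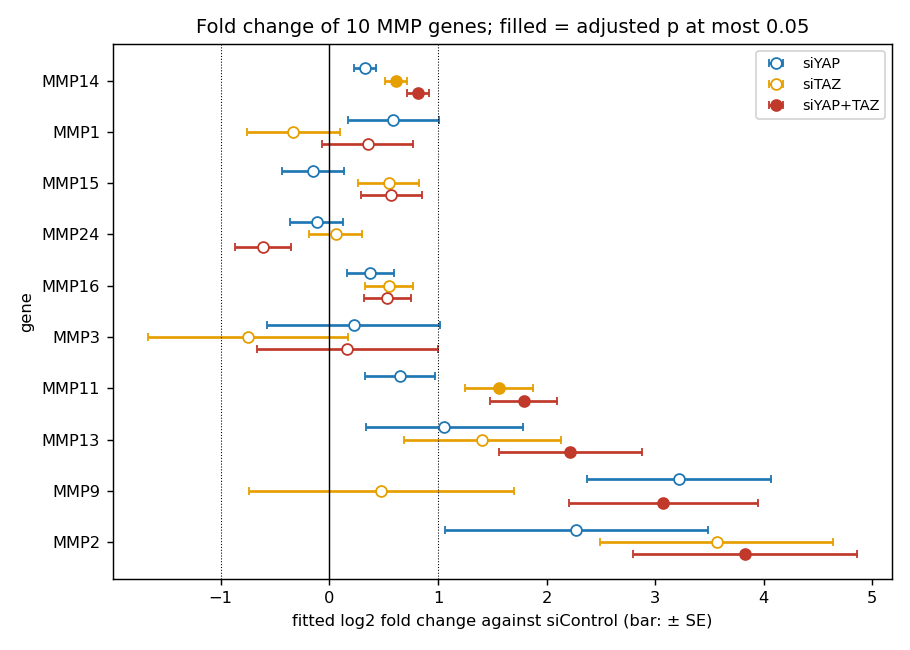
Fitted log2 fold change against siControl (horizontal axis, bars ± SE) of the 10 MMP genes in siYAP, siTAZ and siYAP+TAZ, 3 libraries per group, with filled points at an adjusted p of at most 0.05. MMP14 has the narrowest bars and rises to 0.82 in siYAP+TAZ, whereas MMP2, MMP9 and MMP13 have the largest fitted changes in siYAP and siYAP+TAZ, with wide bars. In siTAZ MMP11 lies above MMP13 and MMP9.

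Among the membrane-type enzymes, MMP14 was called after siTAZ and siYAP+TAZ, and MMP15, MMP16 and MMP24 were not called in any comparison with the main settings. MMP14 (ENSG00000157227) lies on chromosome 14 at 22836560 to 22849041 on the plus strand (GRCh38, GENCODE release 44), and none of its exonic bases overlaps another gene. It had 13367, 13642 and 14092 normalized counts in siControl, and 16293, 13423 and 13341 in Control. The siYAP libraries held 17274, 17533 and 16799, the siTAZ libraries 18857, 25084 and 19084, and the siYAP+TAZ libraries 23628, 26105 and 22859. All 9 knockdown libraries lay above all 6 libraries of both control groups, and siTAZ library 24 stood above the rest of its group.

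The mean of MMP14 was 177% of siControl in siYAP+TAZ, 153% in siTAZ and 126% in siYAP. The log2 fold change was 0.82 ± 0.10 (SE) in siYAP+TAZ (adjusted p = 2.33e-05, edgeR), 0.62 ± 0.10 in siTAZ (adjusted p = 0.00472) and 0.33 ± 0.10 in siYAP (adjusted p = 0.146). MMP14 stayed under the 2-fold limit in each. With the run of library numbers as a block its adjusted p in siYAP was 0.0347. Between siControl and Control it differed by -0.07 ± 0.10 on the log2 scale (adjusted p = 1, edgeR). Within the runs of library numbers 16 to 20, 21 to 25 and 26 to 30, the log2 ratio of siYAP+TAZ to siControl was 0.82, 0.94 and 0.70.

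Compared directly, MMP14 was higher in siYAP+TAZ than in siYAP by 0.49 ± 0.10 on the log2 scale (adjusted p = 0.00749, edgeR). Without siYAP+TAZ library 25 the difference was 0.43 with an adjusted p of 0.0549. Against siTAZ the co-knockdown was higher by 0.20 ± 0.10, which did not pass (adjusted p = 0.279, edgeR), and the libraries overlapped through siTAZ library 24. Without that library the difference was 0.36 with an adjusted p of 0.0445. The departure of the co-knockdown from the sum of the single changes was -0.12 ± 0.14 (adjusted p = 0.954, edgeR). Depletion was not equal between these groups. WWTR1 averaged 65.2% of siControl in siYAP+TAZ and 29.6% in siTAZ, and YAP1 48.1% in siYAP+TAZ and 35.0% in siYAP. That limit holds for every comparison of the co-knockdown with a single knockdown and for all interaction terms.

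**Figure D3:**
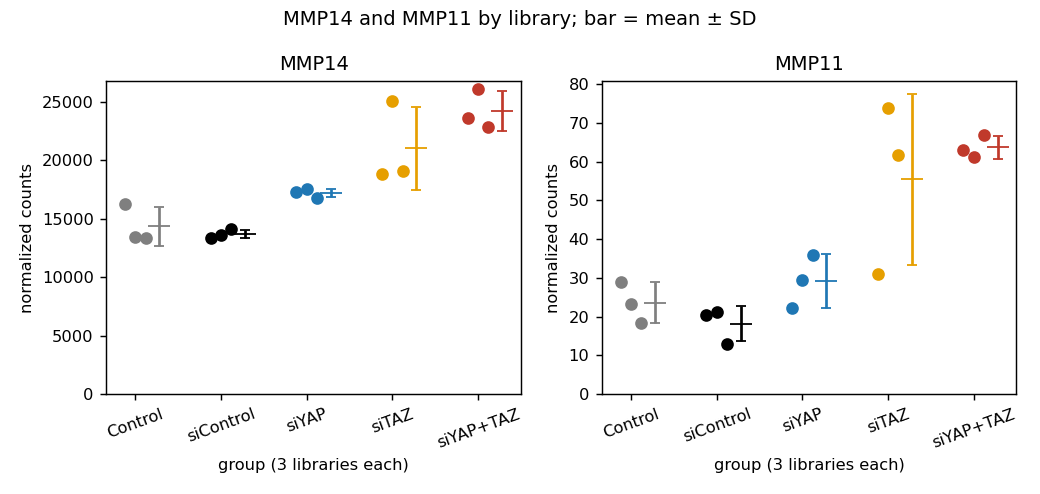
Normalized counts of MMP14 (left) and MMP11 (right) in each library of the 5 groups, with the mean ± SD of each group (n = 3) beside its points. For MMP14 all knockdown libraries lie above both control groups, and for MMP11 the siYAP+TAZ libraries lie between 61.2 and 67.0 against 12.9 to 21.3 in siControl.

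MMP15 (MT2-MMP), on chromosome 16 at 58025754 to 58046901, had 165, 180 and 96.6 normalized counts in siControl. It had 138, 165 and 94.5 in siYAP, 219, 261 and 167 in siTAZ, and 265, 229 and 169 in siYAP+TAZ. Libraries of siControl and siYAP+TAZ overlapped. The log2 fold change was 0.57 ± 0.28 in siYAP+TAZ (adjusted p = 0.193, edgeR), 0.55 ± 0.28 in siTAZ (adjusted p = 0.373) and -0.15 ± 0.29 in siYAP (adjusted p = 0.913). Libraries 26 to 30 held 94.5 to 169 normalized counts of MMP15 and libraries 16 to 20 held 138 to 265. With the run as a block the adjusted p was 0.00131 in siYAP+TAZ and 0.00918 in siTAZ.

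MMP16 (MT3-MMP), on chromosome 8, had 109, 126 and 64.4 normalized counts in siControl. The siYAP libraries held 129, 148 and 112 normalized counts, the siTAZ libraries 128, 178 and 135, and the siYAP+TAZ libraries 150, 160 and 127. All siTAZ and siYAP+TAZ libraries lay above siControl, the lowest of them at 127 against 126 for the highest siControl library. The log2 fold change of MMP16 was 0.53 ± 0.22 in siYAP+TAZ (adjusted p = 0.0999, edgeR), 0.55 ± 0.22 in siTAZ (adjusted p = 0.211) and 0.38 ± 0.22 in siYAP (adjusted p = 0.532). With the run as a block the adjusted p of MMP16 was 0.00692 in siYAP+TAZ and 0.0198 in siTAZ, with a change below 2-fold in both.

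MMP24 (MT5-MMP), on chromosome 20 at 35226690 to 35276998, was the only member with a negative fold change after co-knockdown. It had 33.2, 43.5 and 56.9 normalized counts in siControl and 36.9, 26.9 and 23.9 in siYAP+TAZ, which overlapped, for a log2 fold change of -0.61 ± 0.26 (adjusted p = 0.115, edgeR). With Control as the reference the value was -0.75 with an adjusted p of 0.0491. In siYAP it had 48.3, 37.4 and 35.9 and in siTAZ 51.7, 49.2 and 36.0, with log2 fold changes of -0.12 ± 0.24 (adjusted p = 0.927) and 0.06 ± 0.24 (adjusted p = 0.943). Of its exonic bases 22.1% lie opposite MMP24OS and ENSG00000279253. Whether the counting used the strand is not stated, so reads from these stretches cannot be told apart.

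The stromelysin group holds MMP3, a broad matrix protease that also activates other pro-MMPs, and MMP11 (stromelysin-3), which is cut by furin inside the cell and secreted in active form. MMP11 (ENSG00000099953) lies on chromosome 22 at 23768226 to 23784316 on the plus strand and overlaps no other gene in its exons. It had 20.4, 21.3 and 12.9 normalized counts in siControl, and 29.0, 23.3 and 18.4 in Control. The siYAP libraries held 22.2, 29.4 and 35.9, the siTAZ libraries 31.0, 73.8 and 61.7, and the siYAP+TAZ libraries 63.0, 61.2 and 67.0. Every library of each knockdown lay above siControl, whereas siYAP overlapped Control.

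The mean of MMP11 was 351% of siControl in siYAP+TAZ, 305% in siTAZ and 161% in siYAP. The log2 fold change was 1.79 ± 0.31 in siYAP+TAZ (adjusted p = 0.000473, edgeR), 1.56 ± 0.31 in siTAZ (adjusted p = 0.0123) and 0.65 ± 0.32 in siYAP (adjusted p = 0.448). The call in siTAZ was lost without siControl library 17 (adjusted p = 0.0541), without siControl library 27 (adjusted p = 0.0511) or without siTAZ library 24 (adjusted p = 0.112). MMP11 was higher in siYAP+TAZ than in siYAP by 1.14 ± 0.29 (adjusted p = 0.0258, edgeR), but of the 6 fits that left out 1 library the call held only in the one without siYAP library 28, and adjusted p-values reached 0.134 without siYAP library 18. Against siTAZ the difference was 0.23 ± 0.28 (adjusted p = 0.726, edgeR), and the departure from the sum of single changes was -0.42 ± 0.42 (adjusted p = 0.948).

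MMP3 lies on chromosome 11 at 102835801 to 102843609 and had few reads. Raw counts were 16, 11 and 5 in siControl, 12, 5 and 0 in Control, 18, 20 and 4 in siYAP, 14, 3 and 0 in siTAZ, and 15, 14 and 2 in siYAP+TAZ. In each group the lowest count was in the library of the run 26 to 30, and every knockdown overlapped siControl. The summed, depth-scaled reads gave a ratio of 1.08 for siYAP+TAZ against siControl (95% interval 0.637 to 1.83), 1.18 for siYAP (0.729 to 1.94) and 0.607 for siTAZ (0.316 to 1.13). These intervals are exact (Clopper-Pearson), and they and those below cover counting error only. The fitted log2 fold change in siYAP+TAZ was 0.17 ± 0.83 (adjusted p = 0.923, edgeR). In siTAZ the fitted value was -0.75 (adjusted p = 0.763), and it was -2.36 without siTAZ library 19 (adjusted p = 0.329), which held 14 of the group's 17 reads. Of the 50-base stretches of MMP3 transcripts, 3.18% are shared with MMP10.

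Among the collagenases, MMP1 (interstitial collagenase) was the second most abundant member and MMP13 (collagenase-3) was at the count floor. MMP1, MMP3 and MMP13 lie in the MMP cluster of chromosome 11, 556.0, 602.4 and 709.6 kb beyond the end of YAP1 itself. MMP1 lies at 102789401 to 102798160, and 8.14% of its exonic bases lie opposite WTAPP1. It had 697, 631 and 344 normalized counts in siControl and 762, 691 and 362 in Control. The siYAP libraries held 1039, 813 and 671 normalized counts of MMP1, the siTAZ libraries 685, 307 and 328, and the siYAP+TAZ libraries 818, 898 and 434. Within each run of library numbers siYAP and siYAP+TAZ exceeded siControl, but the groups overlapped because libraries 26 to 30 were low in all groups, with a median of 362 against 762 in libraries 16 to 20.

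The log2 fold change of MMP1 was 0.59 ± 0.42 in siYAP (adjusted p = 0.655, edgeR), -0.33 ± 0.43 in siTAZ (adjusted p = 0.78) and 0.35 ± 0.42 in siYAP+TAZ (adjusted p = 0.633). Within the 3 runs, the log2 ratio of siYAP to siControl was 0.57, 0.37 and 0.96, and that of siYAP+TAZ was 0.23, 0.51 and 0.33. That of siTAZ was -0.03, -1.04 and -0.07. The labels do not say that a run is a batch, and the part of the run in these values was not tested for MMP1 beyond a fit with the run as a block, which called MMP1 in none of the 3 knockdowns.

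**Figure D4:**
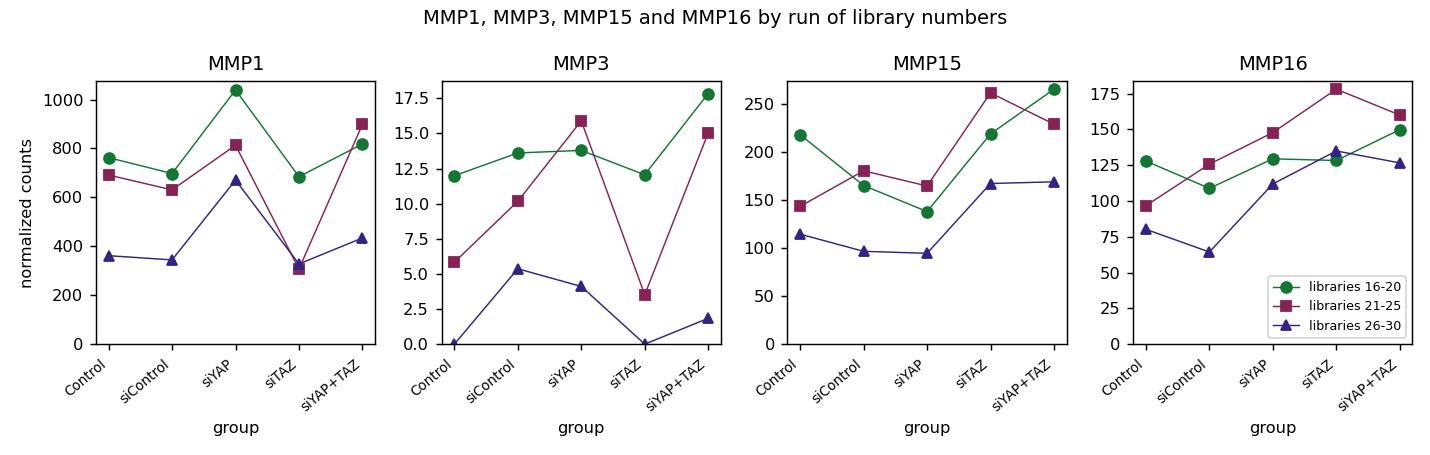
Normalized counts of MMP1, MMP3, MMP15 and MMP16 in the 5 groups, where each line joins the 5 libraries of 1 run of consecutive library numbers (16 to 20, 21 to 25, 26 to 30). For MMP1 and MMP3 the run 26 to 30 is at or near the bottom in every group, with MMP3 between 0 and 5.36 in that run.

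MMP13 lies at 102942995 to 102955732 on chromosome 11. Raw counts were 2, 2 and 1 in siControl, 1, 0 and 0 in Control, 3, 6 and 3 in siYAP, 4, 2 and 6 in siTAZ, and 6, 10 and 6 in siYAP+TAZ. All siYAP+TAZ libraries lay above both control groups. The summed reads, 22 against 5, gave a depth-scaled ratio of 4.90 for siYAP+TAZ against siControl (95% interval 1.81 to 16.6). The ratios were 2.16 (0.710 to 7.84) in siYAP and 2.74 (0.899 to 9.93) in siTAZ, whose intervals include 1. MMP13 reached 5 reads in knockdown libraries only, which favoured ratios above 1 in advance, so none of these intervals is a test. The same holds for the intervals of MMP2 and MMP9 below. The fitted log2 fold change in siYAP+TAZ was 2.22 ± 0.66 (adjusted p = 0.0235, edgeR), and DESeq2 gave an adjusted p of 0.0612. The edgeR call was also lost without any 1 of the siControl libraries 17, 22 and 27 (adjusted p = 0.0661, 0.0588 and 0.0724) or without siYAP+TAZ library 25 (adjusted p = 0.101).

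The gelatinases MMP2 and MMP9, which cleave denatured collagen and basement membrane collagen, were both at the count floor in siControl. MMP2 lies on chromosome 16 at 55389700 to 55506691, and 3.7% of its exonic bases overlap ENSG00000279030 on the same strand. Raw counts of MMP2 were 0, 1 and 0 in siControl, 1, 1 and 1 in Control, 2, 2 and 3 in siYAP, 5, 3 and 6 in siTAZ, and 2, 2 and 14 in siYAP+TAZ. Every knockdown library held more MMP2 reads than any control library, and 14 of the 18 reads of siYAP+TAZ came from library 30.

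Against a single MMP2 read over the 3 siControl libraries, the depth-scaled ratio was 20.1 in siYAP+TAZ (95% interval 3.17 to 836), 16.0 in siTAZ (2.43 to 676) and 6.31 in siYAP (0.811 to 284). The fitted log2 fold change of 3.83 ± 1.03 in siYAP+TAZ (adjusted p = 0.0136, edgeR) depends on the prior count and is no bound. It fell to 2.45 without library 30 (adjusted p = 0.172), was 3.33 without siControl library 17 (adjusted p = 0.0634) and 2.29 with Control as the reference (adjusted p = 0.0774), and no such fit passed. Without siControl library 22, the only one with an MMP2 read, the fitted value was 5.63. In siTAZ the adjusted p of MMP2 was 0.0915, or 0.0238 with the run as a block, and in siYAP it was 0.492.

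MMP9 lies on chromosome 20 at 46008908 to 46016561, and 18.4% of its exonic bases lie opposite SLC12A5-AS1. Raw counts were 3, 0 and 1 in siControl, 1, 1 and 2 in Control, 9, 10 and 24 in siYAP, 2, 2 and 1 in siTAZ, and 3, 6 and 25 in siYAP+TAZ. The siYAP libraries lay above both control groups and above siTAZ, and libraries 28 and 30 of the last run held the most reads. In siTAZ the MMP9 counts overlapped siControl.

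The depth-scaled ratio of MMP9 to siControl was 9.69 in siYAP (95% interval 3.52 to 37.2), 9.47 in siYAP+TAZ (3.38 to 36.8) and 1.43 in siTAZ (0.307 to 7.19). The fitted log2 fold change was 3.08 ± 0.87 in siYAP+TAZ (adjusted p = 0.0183, edgeR), 3.22 ± 0.85 in siYAP (adjusted p = 0.0816) and 0.48 ± 1.22 in siTAZ (adjusted p = 0.897). The call in siYAP+TAZ was lost without siControl library 22 (adjusted p = 0.0778), siControl library 27 (adjusted p = 0.0551) or siYAP+TAZ library 30 (adjusted p = 0.201). One library moved the fitted log2 value widely, from 1.92 without library 30 to 4.22 without siControl library 17 in siYAP+TAZ, and from 2.46 without library 28 to 4.37 without siControl library 17 in siYAP. With the run as a block MMP9 passed in siYAP (adjusted p = 0.00395) and against siTAZ in siYAP+TAZ (adjusted p = 0.017) and siYAP (adjusted p = 0.012). A direct test of siYAP against siTAZ, added after these values were seen, gave 2.74 ± 0.82 for MMP9 (adjusted p = 0.137, edgeR), or 1.98 without siYAP library 28. MMP9 reached 5 reads only in siYAP and siYAP+TAZ libraries and the contrast was picked for the difference already seen, so its values against siTAZ, with or without the block, are a description and no independent test. In the direct test none of the 10 members passed both thresholds in edgeR or in DESeq2, against 0.0636% and 0.0955% of all genes. In edgeR 4 (MMP9, MMP11, MMP14 and MMP15) had an unadjusted p under 0.05, against 13.7% of all genes. With the block 1 member (MMP9) passed both thresholds against 0.286% of all genes there, and 1 (MMP9) against 1.46% in siYAP+TAZ against siTAZ.

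**Figure D5:**
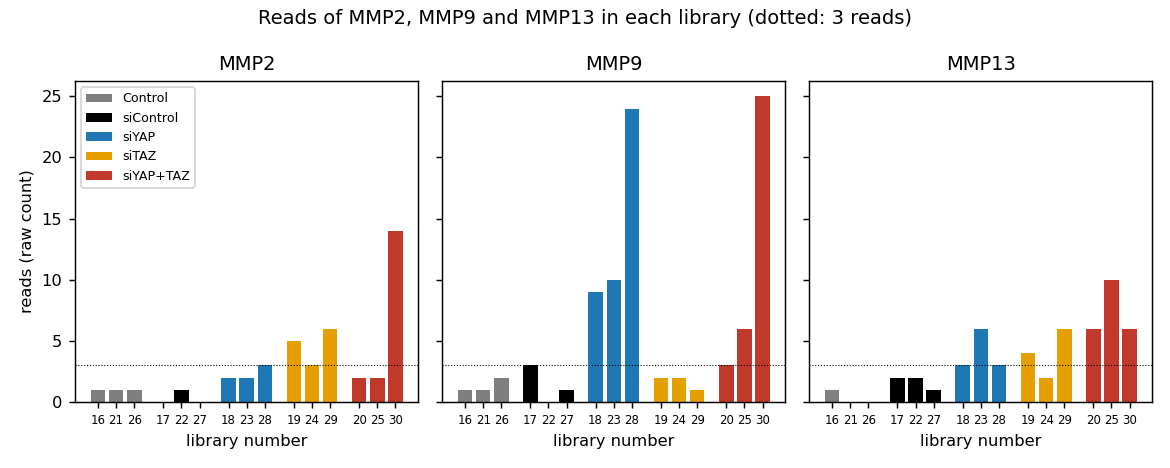
Raw reads of MMP2, MMP9 and MMP13 in each library (bars, library numbers below, colours for the groups), with 3 reads as a dotted line. All Control and siControl bars lie at 3 reads or fewer, MMP9 reaches 24 in siYAP library 28 and 25 in siYAP+TAZ library 30, and MMP2 reaches 14 in library 30.

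Over the 10 genes, siYAP+TAZ against siYAP had 1 member past both thresholds (MMP11) against 0.742% of all genes, and 2 at an adjusted p of at most 0.05 (MMP11 and MMP14) against 5.13% of all genes. Against siTAZ, none passed both thresholds in edgeR or in DESeq2, against 0.78% of all genes, none had an adjusted p of at most 0.05, against 5.44% of all genes, and 2 (MMP9 and MMP24) had an unadjusted p under 0.05, against 19.3% of all genes. For the interaction of siYAP and siTAZ, none passed both thresholds in edgeR or in DESeq2, against 0.0053% and 0.0318% of all genes. In edgeR none had an unadjusted p under 0.05, against 5.85% of all genes. The SE of these interaction terms ran from 0.14 for MMP14 to 1.37 for MMP2, so that departures of the low genes from additivity were not detectable at this depth unless large.

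Of 13 further MMP family genes 7 were in the table. In siYAP+TAZ none of them passed both thresholds in edgeR or in DESeq2, against 3.46% and 3.27% of all genes. Their fitted log2 fold change was positive for 4 of the 7, with a median of 0.063. MMP17, which encodes the membrane-anchored MT4-MMP, was the only one of the 7 with an adjusted p of at most 0.05, which 18.4% of all genes had, and the only one with an unadjusted p under 0.05, which 30.3% of all genes had. It had 43.8 ± 6.74 normalized counts (SD, n = 3) in siControl and 85.5 ± 13.0 in siYAP+TAZ, without overlap, a log2 fold change of 0.98 ± 0.24 (adjusted p = 0.00874, edgeR). In siTAZ its log2 fold change was 0.80 ± 0.25 (adjusted p = 0.101) and in siYAP 0.32 ± 0.25 (adjusted p = 0.69).

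Of 6 listed MMP inhibitors 5 were in the table, and 2 of the 5 (TIMP4 and TIMP1) were higher in siYAP+TAZ on adjusted p, against 9.97% of all genes as higher and 18.4% in either direction. TIMP4 had 26.1 ± 7.77 normalized counts (SD, n = 3) in siControl and 84.0 ± 22.0 in siYAP+TAZ, without overlap, and was higher by 1.66 ± 0.25 on the log2 scale (adjusted p = 0.000178, edgeR). It was also higher in siTAZ, by 1.41 ± 0.26 (adjusted p = 0.00868), and did not pass in siYAP in edgeR (adjusted p = 0.0757), where DESeq2 called it past both thresholds (log2 fold change 1.02, adjusted p = 0.0283). TIMP1, a secreted inhibitor of most soluble MMPs, was higher in siYAP+TAZ by 0.60 ± 0.17 (adjusted p = 0.0217, edgeR), at 5384 to 6377 normalized counts against 3439 to 4482. TIMP1 was not called without siControl library 17, siControl library 22 or siYAP+TAZ library 30, whereas TIMP4 was called in all 3 of these fits. The median log2 fold change of the 5 inhibitors was 0.39, against -0.0048 over all genes.

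Among 10 proteases and receptors that activate MMPs 8 were in the table, and PCSK5, a proprotein convertase related to furin, was the only one to pass on adjusted p in siYAP+TAZ (0.91 ± 0.31 log2, adjusted p = 0.0454, edgeR), so that 1 of 8 passed against 18.4% of all genes. That count became 0 without siControl library 22, against 13.3% of all genes, or without siYAP+TAZ library 25, against 14.1%. Without siYAP+TAZ library 30 it was 3 (PCSK5, PLAT and ST14), against 15.5%. With DESeq2, with either stricter filter, with library sizes alone or with DESeq2 size factors it was 2, PLAU being added, against 17.7% to 23.7% of all genes in those fits. With the run as a block it was 5 of 8, against 28.6% of all genes. PCSK5 did not pass without robust estimation, with only the groups compared or with Control as the reference. Of 15 surface partners and delivery factors of MT1-MMP, 3 were higher and 1 was lower on adjusted p, all by less than 2-fold, so that 4 of 15 passed against 18.4% of all genes, a share near that background. SH3PXD2A, which encodes the invadopodia scaffold TKS5, had 1971 to 2181 normalized counts in siControl and 3517 to 4418 in siYAP+TAZ, a log2 fold change of 0.92 ± 0.10 (adjusted p = 5.45e-06, edgeR). Its relative SH3PXD2B (TKS4) was higher by 0.94 ± 0.18 (adjusted p = 0.0012). The others, named after their values were seen, were the kinase gene SRC (0.48 ± 0.10, adjusted p = 0.00202) and the caveolin gene CAV1 (-0.35 ± 0.08, adjusted p = 0.0065).

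Of 16 transcription factors known to bind MMP promoters, 2 were higher and 3 were lower in siYAP+TAZ at an adjusted p of at most 0.05, none by 2-fold, so that 5 of 16 passed against 18.4% of all genes. ETS1 was lower, with 11948 to 12226 normalized counts in siControl and 7330 to 7990 in siYAP+TAZ, a log2 fold change of -0.67 ± 0.10 (adjusted p = 0.000146, edgeR). It was also lower in siTAZ, with -0.51 ± 0.10 (adjusted p = 0.0119), and the value in siYAP was -0.37 ± 0.10 (adjusted p = 0.0913). For ETS1 in siYAP, DESeq2 gave an adjusted p of 0.0447. ETS2 had a log2 fold change of -0.40 ± 0.08 in siYAP+TAZ (adjusted p = 0.002). The others, named after their values were seen, were ETV5 (0.29 ± 0.08, adjusted p = 0.0124), RUNX2 (0.39 ± 0.11, adjusted p = 0.0195) and NFKB1 (-0.43 ± 0.11, adjusted p = 0.013), and RUNX2 and NFKB1 were not called without siControl library 17. The list's median log2 fold change was 0.08.

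Across the 15 libraries, the genes whose log2 CPM was most like that of MMP14 were ABCC3, BMP1 and TNC, among the 10639 genes that averaged 100 or more normalized counts. Pearson's r with MMP14 was 0.978, 0.977 and 0.964. These are descriptions over libraries that share groups and runs. ABCC3 encodes an efflux transporter, BMP1 an astacin-family metalloproteinase that processes procollagen, and TNC the matrix glycoprotein tenascin-C. Their log2 fold changes in siYAP+TAZ were 1.35 ± 0.14, 0.66 ± 0.09 and 1.23 ± 0.20.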

How the data were processed

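RNA was measured in 15 MDA-MB-231 libraries, grouped by the sample names into 5 groups of 3. The authors trimmed reads, aligned them to GRCh38 with STAR 2.4.2a, and deposited raw read counts per gene for genes with at least 5 reads in 1 library. Their normalized, rlog and per-comparison columns (fold change, p, adjusted p from DESeq2) were not used. Whether strand was used in counting is not given in the sources used here. The study describes 3 independent sets of experiments, but nothing says which libraries form a set, so p-values measure the spread between these libraries.

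Counts were normalized by TMM (factors 0.943 to 1.03) and fitted in R 4.3.3 with the robust quasi-likelihood test of edgeR 4.0.16, 1 coefficient per group, all 15 libraries and no block. P-values were adjusted (Benjamini-Hochberg) over 18858 genes. SEs were derived from the fold change and its F statistic. A normalized count is the count scaled to the mean effective library size. DESeq2 1.42.0, other normalizations, filters, dispersion settings, a Control reference, the run of library numbers as a block and left-out libraries were alternatives. Within-run ratios used 0.5 added normalized counts. Exons and overlaps came from GENCODE release 44 on GRCh38.

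The members and gene lists were chosen with earlier results of these data known. Named were all 10 members, the siRNA targets, in each further list any gene past both thresholds in a knockdown and the 2 of lowest adjusted p in siYAP+TAZ among those passing on adjusted p, and the 3 genes most correlated with MMP14. The direct test of siYAP against siTAZ, the split by where a gene reached 5 reads and the restriction of promoters to the 250 bases before the start were chosen after the data were seen.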

Additional observations from a re-analysis of the deposited data

How the results depend on the processing

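Of 586 recomputed values of single genes, 544 kept their direction and their side of both thresholds, applied jointly. Of the rest, 20 no longer passed both, 4 newly passed both and 18 turned sign. Changes of side on adjusted p alone were not counted. Most of the values had not passed both in the main fit and so could not be lost. Fits whose filter removed a gene gave no value for it. In the 6 fits without 1 library, the siYAP+TAZ call held in 6 for MMP11, 4 for MMP2, 3 for MMP9 and 2 for MMP13. The MMP11 call held in 3 such fits in siTAZ and in 1 in siYAP+TAZ against siYAP. In siYAP+TAZ against siControl the 4 genes past both thresholds became 2 (MMP9 and MMP11) with at least 10 reads in 3 libraries and 1 (MMP11) with filterByExpr, and 5 at an adjusted p alone became 3 and 2. The first filter removes MMP2 and MMP13 before the test and keeps MMP9, which the second also removes. MMP9 meets the first only through 3 siYAP and siYAP+TAZ libraries, so its call there is no independent support. Over all genes tested the filtered fits called 3.84% and 3.87% past both and 23.2% and 23.7% at an adjusted p alone. With the run of library numbers as a block 7 passed at an adjusted p alone, MMP15 and MMP16 being added, against 28.6% of all genes. Leaving out 1 library gave 2 to 4 past both, against 2.83% to 3.09% of all genes, and 3 to 5 at an adjusted p alone, against 13.3% to 15.5%. MMP11 passed both thresholds and MMP14 the adjusted p in that comparison under all 15 alternatives run.

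With that block, 1 gene (MMP9) passed both thresholds in siYAP (0.382% of all genes), 2 (MMP2 and MMP11) in siTAZ (0.806%), 1 (MMP9) in siYAP+TAZ against siTAZ (1.46%) and 1 (MMP9) in siYAP against siTAZ (0.286%), and 2 (MMP9 and MMP14) in siYAP (6.1%) and 5 (MMP2, MMP11, MMP14, MMP15 and MMP16) in siTAZ (10.3%) passed at an adjusted p alone. MMP2 and MMP9 reached 5 reads in knockdown libraries only, so the block counts that hold them are a description. The groups do not share replicate numbers and no label makes a run a set, so no pairing was assumed. With only the groups compared in the fit, 1 gene (MMP14) passed at an adjusted p alone in siYAP (0.742% of all genes), and in siTAZ 0 passed both (0.0636%) and 1 (MMP14) the adjusted p alone (0.78%). Without 1 library, siTAZ had 0 to 1 past both (0.0212% to 0.705% of all genes) and 1 to 2 at an adjusted p alone (0.361% to 4.78%), siYAP+TAZ against siYAP 0 to 1 past both (0.445% to 0.62%), and siYAP against siTAZ 0 to 1 (0% to 0.233%). The cause of these changes was not tested.

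Sign changes were confined to values that had not passed. With Control as the reference MMP24 in siTAZ was -0.086. Without 1 library, log2 values ranged from -0.12 to 0.27 for MMP24 in siTAZ, -0.28 to 0.090 for MMP24, -0.37 to 0.029 for MMP15 and -0.066 to 0.58 for MMP3 in siYAP, -0.070 to 1.61 for MMP9 in siTAZ, and -0.29 to 0.73 for MMP3 in siYAP+TAZ. They ranged from -1.31 to 0.62 for MMP9 in siYAP+TAZ against siYAP, -0.089 to 0.50 for MMP11 against siTAZ, and, for the interaction, -0.20 to 0.018 for MMP14 and -1.79 to 0.14 for MMP9. Depth limits MMP2, MMP9 and MMP13 most, where 1 to 5 reads over siControl set every ratio.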
